A study of Mus musculus with 15 samples.

Results

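The 4 mouse embryo sections read at the finest grid of the study, with pixels 10 µm wide, were compared between embryonic day 11 (E11, 2 sections) and embryonic day 10 (E10, 2 sections). They are 4 of the 11 transcript libraries of the series. Pixels whose total was under 0.1 times a high reference value, the 95th percentile over all pixels of the same library, were set aside as off tissue. This left 2173 and 2271 tissue pixels in E10 replicates 1 and 2 and 1636 and 1930 in E11 replicates 1 and 2. Counts were summed per library over 17734 protein-coding autosomal genes. Levels are given in CPM, the usual per-million scaling of a count by that sum, and lists of values run in the order E10 replicate 1, E10 replicate 2, E11 replicate 1, E11 replicate 2.

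In this assay, barcodes are flowed across a thin frozen section through parallel microchannels in one direction and then in the other, so that every crossing of channels becomes a pixel read out by the pair of barcodes that met there. A pixel is a small patch of tissue that can hold parts of several cells. All 4 samples are labelled as whole mouse embryo tissue of the stated day, with no treatment. The labels name no strain, sex, embryo or body region, and nothing says that sections of a stage came from separate embryos. The p-values therefore measure only spread between sections. In the main fit that spread was estimated jointly with the libraries of other pixel widths, and not from these sections alone.

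The days compared fall in mid-gestation. The liver bud is then being colonised by blood-forming cells and begins to secrete plasma proteins, the looped heart is dividing into chambers, the neural tube is producing its first neurons, and Hox genes mark position along the trunk. Secreted signals of the Wnt, BMP, FGF, Hedgehog and retinoic acid pathways pattern these organs.

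The totals over the used genes were 10194127, 4434025, 2121254 and 2214615 counts, and the median used count per tissue pixel was 3419, 1765, 1025 and 925. Depth therefore fell with stage in these 4 libraries, and the share of counts in pseudogene columns, which were left out, was 8.74%, 10.7%, 12.6% and 14.2%. Mitochondrial transcripts took 2.34%, 1.72%, 0.555% and 1.36% of counts. Replicates differed far beyond counting noise, with a chi-square statistic 31.3 times its degrees of freedom between the E10 sections and 22.9 times between the E11 sections, so neither pair is one library deposited again. Across the 14066 tested genes, Pearson's r of log2 CPM was 0.951 between the E10 sections and 0.872 between the E11 sections, while E11 replicate 1 gave 0.925 and 0.923 with the E10 sections. E11 replicate 1 was thus closer to both E10 sections than to the other section of its own stage. The libraries share 1 barcode grid, and 1050 of the 2490 positions that were tissue in any of them were tissue in all 4.

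Across all genes, 23 of 14066 (0.164%) differed between the stages: 11 were higher in E11 (0.0782%) and 12 were lower (0.0853%) by edgeR's quasi-likelihood test with Benjamini-Hochberg adjustment at a threshold of 0.05. The named genes among them encode secreted and membrane proteins, a regulator of chromosome separation, a nuclear chaperone, proteins of cell adhesion and zinc finger proteins. In sums over a section, fewer cells of a type and less RNA per cell cannot be told apart. The median log2 fold change of all tested genes was 0.01. At an unadjusted p under 0.05, 1215 genes were higher (8.64%) and 1123 lower (7.98%). Without regard to the test, both E11 sections lay above both E10 sections for 3164 genes (22.5%) and below them for 3311 genes (23.5%). The count of called genes depended on single libraries: it was 25 without E10 replicate 1, of which 10 are among the 23, 3 without E10 replicate 2, 15 without E11 replicate 2, 757 without E11 replicate 1, and 15, 5 and 7 without replicate 1, 2 or 3 of the E10 libraries at 50 µm, which share the estimate of spread. A fit of the 4 libraries alone called 1 gene, Gm9844, which is none of the 23, and libraries thinned to the depth of the shallowest library gave 0 calls with 921 genes at an unadjusted p under 0.05.

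The gene Cpm, not to be confused with the unit, encodes carboxypeptidase M, a membrane enzyme that trims basic residues from the ends of peptides. Its level was 3.24, 3.38, 29.2 and 47.0 CPM. Both E11 sections were far above both E10 sections, which were nearly equal. The pooled ratio was 11.7-fold and the log2 fold change was 3.53 (SE 0.361, adjusted p = 0.00569 by edgeR's quasi-likelihood test with Benjamini-Hochberg adjustment), and the call was kept in 20 of 22 alternatives. The 10 µm sections gave a wider gap than the others: E10 measured 9.14 to 14.1 CPM at 25 and 50 µm and E11 measured 19.8 and 19.4 CPM at 25 µm, a log2 fold change of 0.64 at 25 µm (adjusted p = 0.54 by edgeR's quasi-likelihood test with Benjamini-Hochberg adjustment).

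Wnt4, a secreted Wnt ligand needed for kidney and gonad development, was the one member of the Wnt list that was called. It measured 7.16, 9.02, 36.3 and 76.3 CPM. The stages did not overlap at 10 µm, although the 2 E11 sections differed from each other more than the E10 sections did. The pooled ratio was 7.34-fold (log2 fold change 2.82, SE 0.433, adjusted p = 0.0291 by edgeR's quasi-likelihood test with Benjamini-Hochberg adjustment). At other pixel widths Wnt4 ran from 14.9 to 41.6 CPM in E10 and reached 216 and 135 CPM in the E11 sections at 25 µm, so the E10 range over all widths overlapped E11 replicate 1.

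Masp2, a serine protease of the lectin branch of complement, was nearly undetected in E10, with 4 and 0 counts against 32 and 20 in E11. These counts correspond to 0.392, 0, 15.1 and 9.03 CPM, and the pooled ratio was 43.9 (log2 fold change 5.46, SE 0.894, adjusted p = 0.0403 by edgeR's quasi-likelihood test with Benjamini-Hochberg adjustment). The call was kept in 13 of 22 alternatives.

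Pttg1, which encodes securin, the protein that holds separase inactive until chromosomes part, measured 28.8, 32.3, 104 and 104 CPM. The sections of each stage lay close together and the stages were well apart. Pttg1 rose 3.48-fold in the pooled counts (log2 fold change 1.76, SE 0.260, adjusted p = 0.0247 by edgeR's quasi-likelihood test with Benjamini-Hochberg adjustment). Of the 11 higher genes it was one of 3, with Wnt4 and Masp2, whose level in the E12 section (97.2 CPM) fell within the range of the E11 sections. Its rise was not shared by the G2 and M phase list described later.

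Npm3, a histone chaperone of the nucleoplasmin family, showed the same tight spacing, with 16.6, 16.9, 68.4 and 70.4 CPM. It rose 4.16-fold (log2 fold change 2.05, SE 0.308, adjusted p = 0.0258 by edgeR's quasi-likelihood test with Benjamini-Hochberg adjustment). Of the 50-base windows of its transcript, 22.6% also occur in Npm3-ps1, so part of its count is uncertain, and E12 was low again at 17.2 CPM.

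Among the lower genes, Akr1e1, an aldo-keto reductase, measured 38.6, 47.1, 5.66 and 3.61 CPM. Both E11 sections were far below both E10 sections, and the E11 sections at 25 µm were also low, at 2.07 and 3.41 CPM. Akr1e1 fell 8.94-fold in the pooled counts (log2 fold change -3.21, SE 0.390, adjusted p = 0.00872 by edgeR's quasi-likelihood test with Benjamini-Hochberg adjustment) and was also called at 25 µm.

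A pair of lower genes act in cell adhesion. Nlgn1 encodes neuroligin 1, a postsynaptic adhesion molecule, and had 84 and 53 counts in E10 and 0 in both E11 sections, against 8.24 and 12.0 CPM in E10. With the E11 group set at a floor of 3 counts over the group it was at least 13.5-fold lower (adjusted p = 0.0403 by edgeR's quasi-likelihood test with Benjamini-Hochberg adjustment). It was detected at 1.84 and 2.95 CPM in the E11 sections at 25 µm. Edil3, an integrin-binding matrix protein, measured 29.8, 38.8, 3.77 and 9.03 CPM and fell 5.04-fold (log2 fold change -2.41, SE 0.415, adjusted p = 0.0496 by edgeR's quasi-likelihood test with Benjamini-Hochberg adjustment). Its call was the least stable of the named genes and was kept in 8 of 22 alternatives.

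The other 6 called genes outside the zinc finger clusters carry provisional symbols and were named after their values were seen. Gm5244 had 2, 1, 40 and 65 counts, a ratio of 118 with a 95% counting interval from 39.3 to 582. Gm6525, Gm10320, Gm17087 and Gm13305 were 5.24-fold to 11.1-fold higher, and E030030I06Rik, with 0 counts in both E11 sections, was at least 11.955-fold lower. RefSeq lists Gm5244, Gm6525, Gm10320 and Gm17087 as pseudogenes, and Gm13305 shares 65.7% of its 50-base windows with another gene, so these counts are uncertain.

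**Figure D1:**
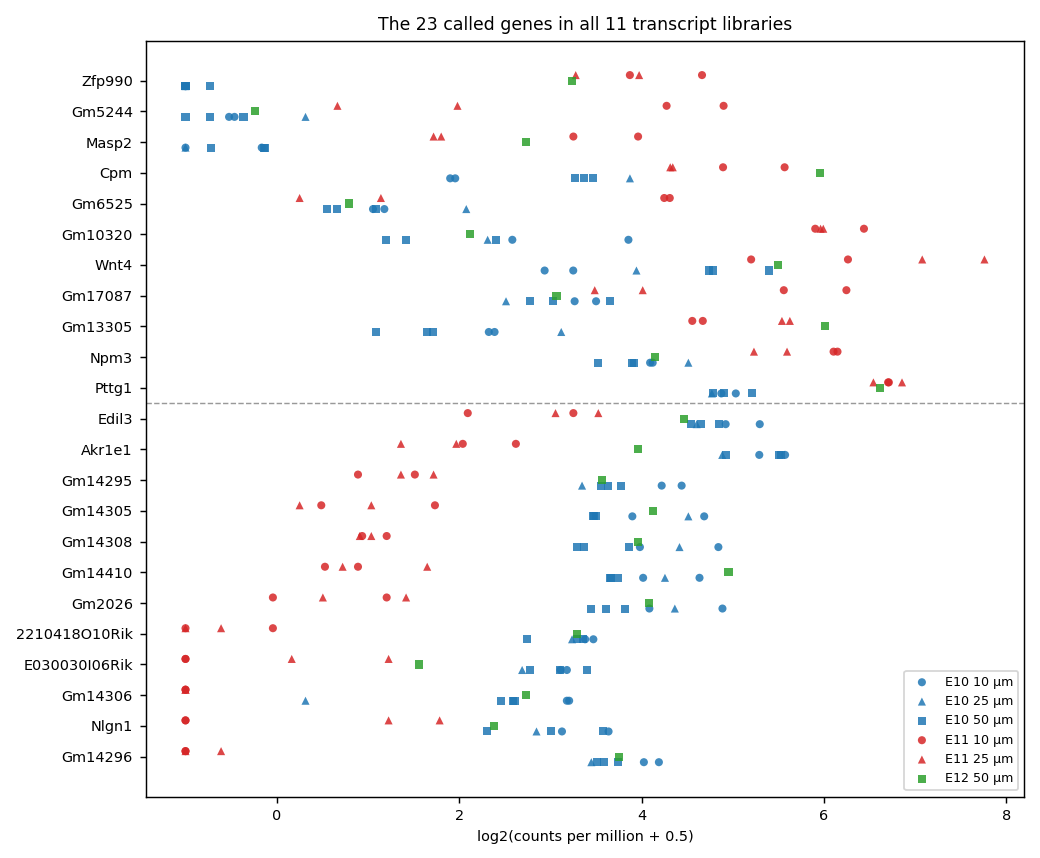
Levels of the 23 called genes in all 11 transcript libraries. Each point is 1 library at log2(CPM + 0.5), with colour for stage (blue E10, red E11, green E12) and shape for pixel width, and the dashed line separates the 12 lower genes from the 11 higher genes. For 20 of the 23 genes the E10 libraries of every width and the E11 libraries of every width do not overlap. The exceptions are Wnt4, Gm17087 and Gm6525.

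The E11 and E10 sections at 25 µm share no library with those at 10 µm, and 22 of the 23 genes had a log2 fold change of the same sign there, the exception being Gm6525. Of the 14066 genes, 17 were called at 25 µm (0.121%), 4 higher (0.0284%) and 13 lower (0.0924%), and they include 6 of the 23. The test of the difference between the change at 10 µm and the change at 25 µm called 0 genes by edgeR's quasi-likelihood test (0%), while 933 genes had an unadjusted p under 0.05. With DESeq2 there were 3 calls, among them Eef1d and Nemp2. Without E11 replicate 2 at 10 µm it called 14. E10 at 25 µm is a single library, assumed to vary like the other groups.

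Several called genes lie in clusters of genes for zinc finger proteins, DNA-binding proteins of which many silence mobile elements and which evolve by copying in tandem. Zfp990 on chromosome 4 (chr4:145510759-145539188, plus strand, GRCm38) had 0 counts in both E10 sections and 30 and 55 in E11, or 14.1 and 24.8 CPM. With the E10 group at a floor of 3 counts it was at least 95.6-fold higher (adjusted p = 0.00872 by edgeR's quasi-likelihood test with Benjamini-Hochberg adjustment), and the call was kept in 20 of 22 alternatives. Of its 50-base transcript windows, 29.1% also occur in some other gene, most often Zfp987. Zfp990 was detected in both E11 sections at 25 µm (9.20 and 15.2 CPM) and in E12 (8.93 CPM), while the E10 libraries at other widths held at most 0.102 CPM.

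Of the 12 lower genes, 8 lie together on chromosome 2: Gm2026, 2210418O10Rik, Gm14308, Gm14306, Gm14305, Gm14295, Gm14296 and Gm14410. They were named after their values were seen. Gm14296 had 181 and 70 counts in E10 and 0 in both E11 sections, at least 24.8-fold lower against the floor. 2210418O10Rik had 152 counts in the E10 sections together and 1 in the E11 sections, a ratio of 45.1 with a 95% counting interval from 7.97 to 1791 that covers counting error only. Gm14306 was at least 12.5-fold lower, and the other 5 were 9.60-fold to 17.6-fold lower. These genes share much sequence with other genes: in 7 of the 8, from 56.1% to 100% of the 50-base transcript windows also occur in some other gene. Gm14306 was not matched to a transcript. How much of the count belongs to each gene is therefore uncertain.

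The promoters show the same likeness. RefSeq (GRCm38.p6) gives promoter sequence for 6 of these 8 genes, and 5 of them share the 40-base stretch printed in capitals in the last 100 bases before each gene's annotated start, given 5′ to 3′ on the gene's strand.
Gm2026 (chr2:175965255-175965354, plus strand): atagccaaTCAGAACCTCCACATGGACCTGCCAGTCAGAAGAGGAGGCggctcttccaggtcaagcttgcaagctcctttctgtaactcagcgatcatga
2210418O10Rik (chr2:176226465-176226564, plus strand): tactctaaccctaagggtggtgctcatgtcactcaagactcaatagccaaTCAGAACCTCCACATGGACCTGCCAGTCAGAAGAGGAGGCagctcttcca
Gm14308 (chr2:176636320-176636419, minus strand): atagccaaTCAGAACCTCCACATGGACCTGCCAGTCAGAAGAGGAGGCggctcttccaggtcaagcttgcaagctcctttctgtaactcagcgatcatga
Gm14305 (chr2:176708253-176708352, plus strand): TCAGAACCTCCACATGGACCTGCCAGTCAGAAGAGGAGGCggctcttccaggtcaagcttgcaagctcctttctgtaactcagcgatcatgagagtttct
Gm14295 (chr2:176798500-176798599, plus strand): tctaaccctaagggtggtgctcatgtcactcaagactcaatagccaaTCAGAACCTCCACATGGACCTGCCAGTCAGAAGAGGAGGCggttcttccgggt
The stretch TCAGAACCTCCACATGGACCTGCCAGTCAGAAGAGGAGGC, searched on both strands, occurs in 17 of 32851 promoter windows of 250 bases (0.0517%). All 17 lie in the chromosome 2 window described next. A match is a description of these letters and not of a binding site.

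The neighbourhood of the 8 genes was examined after their values were seen. In the 3.24 Mb from 1 Mb before the first to 1 Mb after the last of them (chr2:174965331-178206421, GRCm38), 36 genes were tested, 8 of them named Zfp and a number and 28 with Gm or Rik symbols. All 36 had a log2 fold change below 0, from -9.62 to -0.19 with a median of -2.83, both E11 sections lay below both E10 sections for 31 (against 23.5% of all genes), and 8 were called. Their summed level was 346 and 433 CPM in E10 against 54.2 and 72.7 CPM in E11. The stages stood far apart, with little spread within each. The same split held at other widths, with 224 to 323 CPM in the 4 further E10 libraries and 32.9 and 81.8 CPM in the E11 libraries at 25 µm, while the E12 section was back at 326 CPM, within the E10 range.

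The window on chromosome 4 that starts at Zfp990 and ends at Zfp933 (chr4:145510759-147848366, 2.34 Mb) went the other way. Of 19 tested genes, 12 were higher in both E11 sections than in both E10 sections and 2 were lower in both (over all tested genes, 22.5% and 23.5%). Of the 19, 1, Zfp990, was called, with a median log2 fold change of 2.39. The summed level was 79.4, 76.7, 119 and 191 CPM. At other widths it was 57.6 to 75.2 CPM in E10 and 125 CPM in E12, while the E11 libraries at 25 µm gave 68.8 and 130 CPM, the first of them within the E10 range. Zfp986 had 0 CPM in both E10 sections and 1.89 and 2.71 CPM in E11, and Zfp988 had 0.0981 and 0.226 CPM against 4.71 and 2.26 CPM. This window, too, was chosen after the values were seen. Several genes of both windows were at or near 0 CPM in the libraries of either E10 or E11. They passed the filter on low counts only through libraries in which they are high, so the counts and medians for both windows are descriptions. Over the genome, the 334 tested genes named Zfp and a number had a median log2 fold change of -0.17, with 48 higher (14.4%) and 106 lower (31.7%) in both E11 sections and only Zfp990 called.

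**Figure D2:**
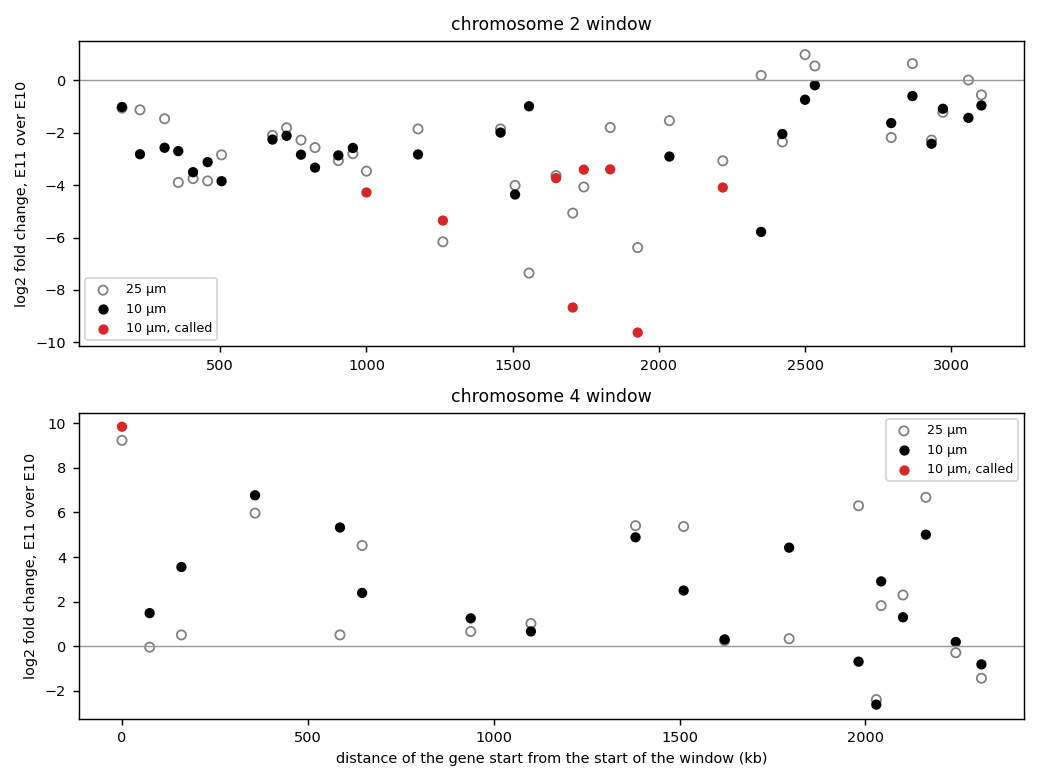
Log2 fold change, E11 over E10, of the 36 tested genes of the chromosome 2 window (upper panel) and the 19 of the chromosome 4 window (lower panel), against the distance of each gene's start from the start of the window in kb. Filled points are the 10 µm sections, red where called, and open points the 25 µm sections. At 10 µm all 36 genes of the chromosome 2 window lie below 0.

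The sex-linked genes, which were kept out of the fit, separated the stages in the same way. The summed level of 4 Y-linked genes was 173 and 154 CPM of all counts in the E10 sections and 0 and 0.365 in the E11 sections. It was 122 to 157 CPM in the other E10 libraries, 242 in E12 and 0 in both E11 libraries at 25 µm. Stage and this difference in Y-linked counts cannot be told apart in these libraries, for the zinc finger genes or for any other called gene. Of the 23 called genes, 13 were within the E10 range in the E12 section, which also has Y-linked counts, 3 were within the E11 range and 7 were outside both, Zfp990 among them.

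Tissue gene lists varied widely between sections, also within a stage. Of 26 lists, the summed level of 6 was higher in both E11 sections than in both E10 sections, 5 were lower, and 15 overlapped. No member of these lists was called. Of the 11 lists without overlap at 10 µm, 2, the proneural and forebrain factors, were also free of overlap between all E10 and all E11 libraries of any pixel width. They were only just apart: the lowest E10 and highest E11 sums were 233 and 225 CPM for proneural and 514 and 503 CPM for forebrain factors. The other 9 overlapped there. The comparison over all widths was added after the values were seen. Many liver and Hox members passed the filter on low counts only through the libraries in which they are high, so the counts and medians for those lists are descriptions.

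**Figure D3:**
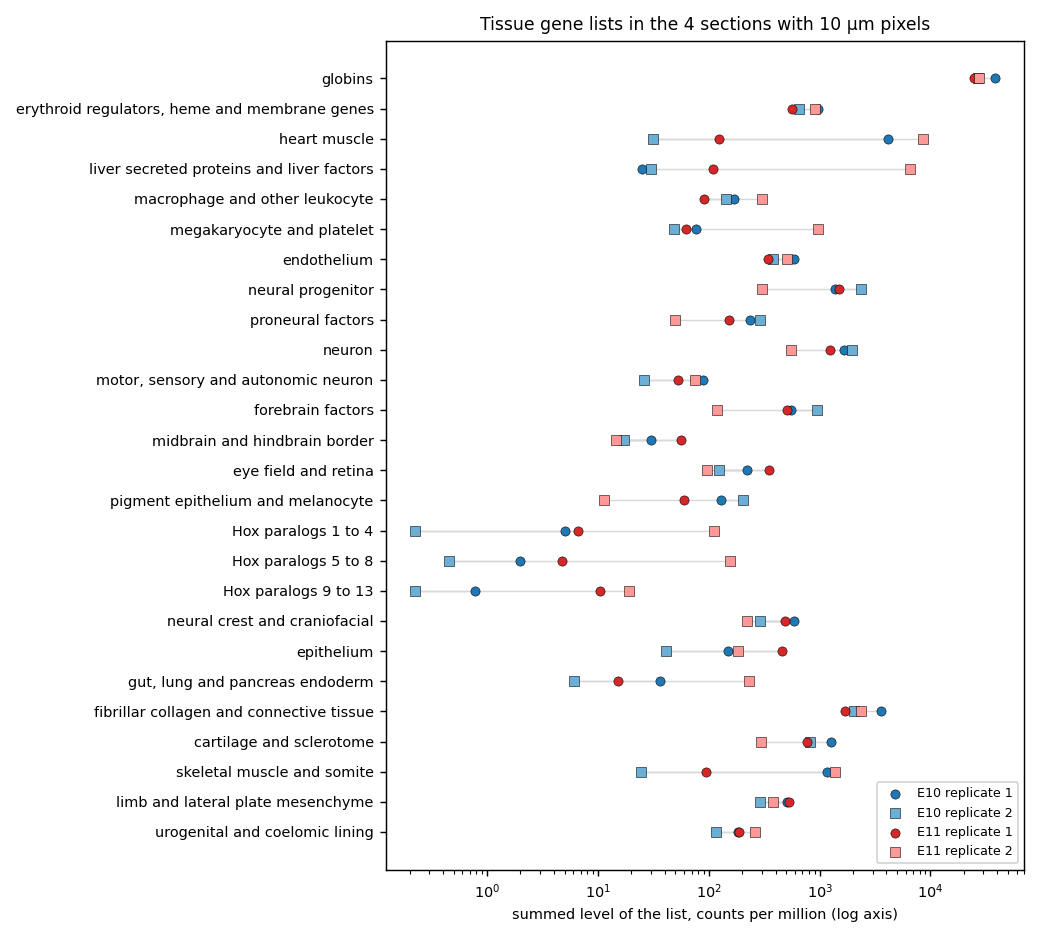
Summed level of each of the 26 tissue gene lists in the 4 sections with 10 µm pixels, in CPM on a log axis, blue for E10 and red for E11, circles for replicate 1 and squares for replicate 2. Heart muscle and skeletal muscle are high in E10 replicate 1 and E11 replicate 2 and low in the other sections. Liver is high in E11 replicate 2.

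Liver genes set E11 replicate 2 apart. The list summed to 25.0, 29.995, 110 and 6534 CPM, with a median log2 fold change of 8.55. Both E11 sections lay above both E10 sections for 15 of 23 tested members (65.2%, against 22.5% of all genes). Afp, the fetal plasma protein alpha-fetoprotein, measured 0.196, 0, 50.4 and 3377 CPM (adjusted p = 0.16 by edgeR's quasi-likelihood test with Benjamini-Hochberg adjustment). The lipid carrier gene Apoa2 measured 4.22, 2.26, 8.01 and 568 CPM, and the transthyretin gene Ttr measured 3.73, 13.98, 7.54 and 314 CPM. E11 replicate 1 was thus above E10 for Afp and Apoa2 but within the E10 range for Ttr. Other libraries went the same way: the sum was 80.8 to 175 CPM in the E10 libraries at 25 and 50 µm, 2191 and 2501 CPM in E11 at 25 µm and 5858 CPM in E12.

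The megakaryocyte and platelet list was also high in E11 replicate 2, at 76.1, 48.3, 61.8 and 971 CPM. At other widths its sum was 46.3 to 71.5 CPM in E10 and 223 and 262 CPM in E11 at 25 µm. In E12 it was 153 CPM, where the liver list summed to 5858 CPM. Pf4, the platelet chemokine gene, measured 40.3, 31.6, 34.4 and 680 CPM, and Itga2b, the platelet integrin gene, 11.7, 3.83, 6.13 and 112 CPM. E11 replicate 2 alone was high for Pf4 and Itga2b, and E11 replicate 1 lay within the E10 range.

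Globin transcripts, which mark red cells, made up a similar share in the 4 sections: 38504, 26909, 24554 and 27271 CPM. Embryonic Hbb-y (14006, 9847, 9668 and 10149 CPM) and Hba-x (7382, 4790, 4095 and 5122 CPM) and the adult-type Hba-a1, Hba-a2 and Hbb-bs overlapped between stages. The embryonic Hbb-bh1 measured 3987, 3425, 1937 and 2132 CPM (adjusted p = 0.25) and Hbb-bt measured 666, 470, 159 and 231 CPM (adjusted p = 0.11), both by edgeR's quasi-likelihood test with Benjamini-Hochberg adjustment. In these 2 genes both E11 sections were the lower ones, yet neither passed the test. They are 2 of 7 globins (28.6%), a share close to the 23.5% of all genes. The E12 section held 101791 CPM of globins. The regulators, heme enzymes and membrane genes of red cells also overlapped, at 963, 652, 559 and 905 CPM, with Tfrc, Slc4a1 and Alad the most abundant.

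Heart muscle followed the section and not the stage. The list summed to 4179, 31.3, 124 and 8472 CPM, and Myl7, the atrial myosin light chain gene, measured 317, 6.09, 22.2 and 1838 CPM. Actc1 (721, 4.74, 14.6 and 1030 CPM) and Myh6 (231, 0.226, 8.01 and 1207 CPM) had the same pattern. E10 replicate 1 and E11 replicate 2 held heart and the other sections held almost none, so the stages overlapped for 18 of 19 members. The skeletal muscle and somite list gave 1172, 24.4, 94.8 and 1364 CPM, most of it Ttn, which heart muscle also expresses (1045, 2.03, 15.1 and 1104 CPM).

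The neuron, proneural, progenitor and forebrain lists were lowest in E11 replicate 2, the section high in liver genes. The neuron list summed to 1659, 1978, 1244 and 547 CPM, and both E11 sections lay below both E10 sections for 11 of 17 members (64.7%, against 23.5% of all genes; median log2 fold change -1.27). Stmn2, a microtubule regulator of growing axons, measured 161, 180, 101 and 42.0 CPM, Dpysl3 345, 489, 352 and 161 CPM, and Tubb3 157, 248, 158 and 34.8 CPM. E11 replicate 1 was close to E10 replicate 1 for Dpysl3 and Tubb3. At 25 µm the neuron sum was 3057 CPM in E10 against 1393 and 1686 CPM in E11, and it was 3512 to 5775 CPM in E10 at 50 µm. Proneural factors, which commit progenitors to a neural fate, gave 233, 287, 154 and 49.2 CPM with 8 of 13 lower (61.5%, against 23.5% of all genes). Among them Nhlh2 measured 50.1, 29.5, 16.5 and 5.42 CPM, Neurog2 10.0, 67.2, 8.96 and 2.26 CPM, and Neurod1 41.6, 25.3, 30.6 and 7.22 CPM.

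The neural progenitor list overlapped, at 1372, 2354, 1483 and 304 CPM, with Nes at 361, 458, 454 and 126 CPM, Pax6 at 84.6, 247, 232 and 3.16 CPM and Fabp7 at 68.3, 342, 96.6 and 6.32 CPM. E11 replicate 1 lay between the E10 sections for each of Pax6, Fabp7 and the sum. Forebrain factors summed to 547, 946, 503 and 120 CPM, with 7 of 15 lower in both E11 sections (46.7%, against 23.5% of all genes). Lhx2 measured 90.0, 258, 88.2 and 38.4 CPM, Six3 138, 101, 88.2 and 3.16 CPM, and Tcf7l2 140, 86.4, 78.3 and 58.7 CPM. Forebrain transcription factors were therefore present in 3 sections and scarce in E11 replicate 2. The motor, sensory and autonomic neuron list behaved differently, at 88.5, 25.9, 53.3 and 74.5 CPM, with its lowest sum in E10 replicate 2. Of 14 members, 3 were higher in both E11 sections (21.4%), a share close to the 22.5% of all genes. Lower in both were 0 members, against 23.5% of all genes.

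Pigment genes of the eye and melanocytes were lower in both E11 sections for 6 of 7 tested members (85.7%, against 23.5% of all genes), and the list summed to 130, 202, 59.9 and 11.3 CPM. Pmel, which builds the fibrils of pigment granules, measured 70.7, 133, 44.3 and 1.35 CPM, and Dct, a melanin synthesis enzyme, 19.5, 28.4, 5.66 and 0.452 CPM. The median log2 fold change was -2.99, with no call. Of the 9 members with a column, 3 had 0 counts in E11 replicate 1 and 5 in E11 replicate 2. Members may thus have passed the filter on low counts only through libraries in which they are high, so this share and median are descriptions. The E10 libraries at 50 µm summed to 4.47, 48.9 and 5.41 CPM, all below E11 replicate 1, so the stages overlapped over all widths. On the grid these counts formed a ring or patch in the E10 sections and in E11 replicate 1, with Moran's I (a measure of likeness between neighbouring pixels) of 0.35, 0.42 and 0.29 against 0.02 in E11 replicate 2.

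Epithelial genes were higher in E11, at 148, 40.8, 458 and 183 CPM. Both E11 sections exceeded both E10 sections for several keratin genes: Krt18 measured 47.7, 29.5, 90.5 and 82.2 CPM and Krt8 26.3, 4.29, 87.2 and 65.5 CPM, and for both genes the stages did not overlap (adjusted p = 0.19 for each by edgeR's quasi-likelihood test with Benjamini-Hochberg adjustment). The adhesion gene Epcam, at 26.7, 3.16, 67.9 and 3.16 CPM, was high in E11 replicate 1 only. Both E11 sections exceeded both E10 sections for 5 of 14 members (35.7%), against 22.5% of all genes.

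Hox genes were nearly absent from 3 sections. Paralogs 1 to 4 summed to 5.003, 0.226, 6.5999 and 111 CPM, paralogs 5 to 8 to 1.96, 0.451, 4.71 and 156 CPM, and paralogs 9 to 13 to 0.785, 0.226, 10.4 and 19.0 CPM. Hoxa5 (0.785, 0.226, 1.89 and 51.5 CPM) and Hoxc4 (0.196, 0, 0.471 and 27.5 CPM) were among the most abundant. E11 replicate 2 was far above the other sections for the first 2 classes, while E11 replicate 1 was close to E10 except for the posterior class. In that class Hoxa10 had 0 CPM in both E10 sections and 2.36 and 1.81 CPM in E11 (adjusted p = 0.071 by edgeR's quasi-likelihood test with Benjamini-Hochberg adjustment). The whole class held 8, 1, 22 and 42 counts, so the levels of its members rest on few counts. High Hox sums were not limited to E11: paralogs 1 to 4 reached 113 to 199 CPM and paralogs 5 to 8 reached 100 to 236 CPM in the 3 E10 libraries at 50 µm. Paralogs 9 to 13 gave 20.2 to 126 CPM in those 3 libraries, above both E11 sections at 10 µm. The E11 libraries at 25 µm held 408 and 486 CPM of that class.

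Connective tissue gave a mixed picture. The fibrillar collagen list overlapped (3600, 2022, 1697 and 2348 CPM). Of its 17 members, 3 were lower in both E11 sections (17.6%, against 23.5% of all genes) and 1 was higher (5.88%, against 22.5%). The lower ones include Col3a1 (1110, 580, 505 and 523 CPM) and Fbn2 (1037, 704, 487 and 428 CPM). Lum, a collagen-binding proteoglycan gene named after its values were seen, measured 85.8, 67.0, 6.13 and 15.4 CPM (adjusted p = 0.057 by edgeR's quasi-likelihood test with Benjamini-Hochberg adjustment). The cartilage and sclerotome list was lower in both E11 sections, at 1267, 825, 769 and 295 CPM, with Sox9, the cartilage master regulator, at 222, 161, 80.6 and 34.3 CPM and Col2a1 at 473, 321, 433 and 93.02 CPM. Wt1, a factor of the coelomic lining and urogenital ridge, measured 2.45, 0, 1.41 and 128 CPM within a list that summed to 184, 117, 187 and 262 CPM.

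Shares of pixels were compared as well. After each pixel was thinned to 500 counts, which left out 0, 93, 241 and 395 shallower pixels, a liver count was found in 1.4%, 1.0%, 6.2% and 59.0% of pixels, and unthinned in 8.7%, 4.0%, 12.1% and 66.0%. Thinned shares for heart muscle were 57.8%, 1.4%, 6.1% and 62.9%, for neural progenitors 44.9%, 62.4%, 44.7% and 14.7%, and for neurons 44.0%, 51.1%, 34.8% and 21.4%. Free RNA can give counts in pixels that lack a tissue, so low shares such as those of liver in E10 are not read as liver tissue. Of the 26 lists, 5 had higher and 7 lower thinned shares in both E11 sections.

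**Figure D4:**
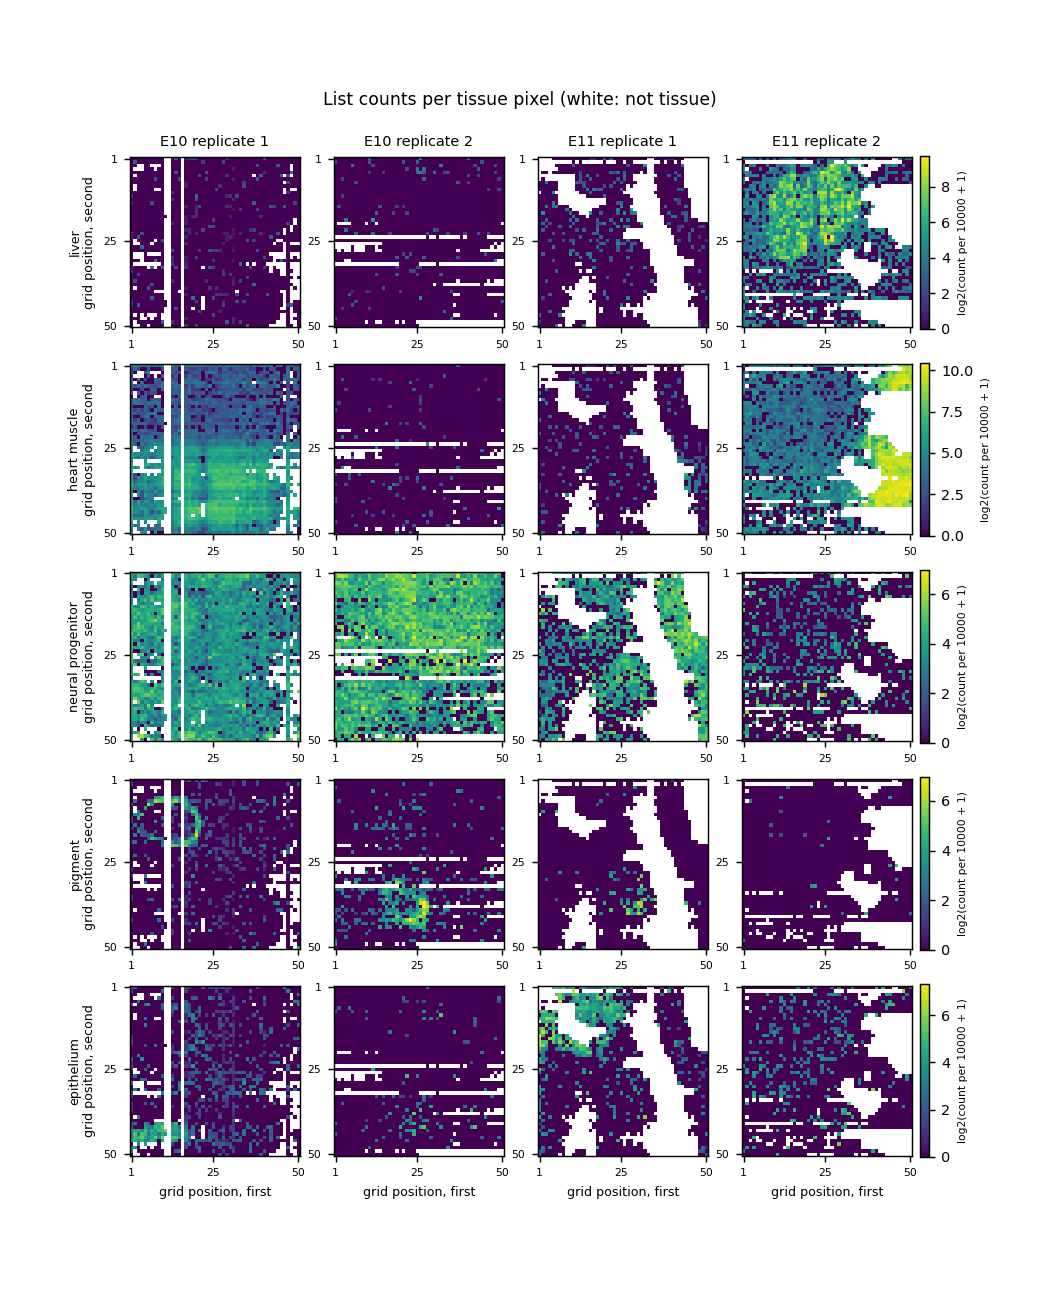
Maps of 5 tissue lists (panel rows) in the 4 sections (panel columns), with the first and second grid positions on the axes and colour for the list's count in each tissue pixel, scaled to a fixed pixel total and shown as log2 of that value plus 1. Liver and heart muscle fill separate areas of E11 replicate 2, pigment counts trace a ring in both E10 sections and a patch in E11 replicate 1, and epithelial counts gather in one corner of E11 replicate 1.

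Within sections, the 10% of tissue pixels with the largest share of a list, called a region here, were compared with the rest, as a description with no test. In E11 replicate 2 the liver region and the heart region, 193 pixels each, shared 0 pixels. Afp belongs to the list that chose the liver region and was at 14178 CPM inside it and 1277 CPM outside, which describes the choice. The region held 1413 CPM of the megakaryocyte and platelet list against 886 CPM outside. Globins were lower inside the liver region, at 12792 CPM against 30150 CPM. Liver pixels were deeper than the rest, with a median of 1674 counts against 840, and the part of depth in these differences was not tested.

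The called genes Cpm and Wnt4 were unevenly spread in E11, and neither belongs to the lists that define these regions. In the epithelium region of E11 replicate 1 (164 pixels), Wnt4 was at 146 CPM against 26.3 CPM outside (26 and 51 counts, 5.55-fold with a 95% counting interval from 3.32 to 9.06), and Cpm was at 107 CPM against 22.2 CPM (4.81-fold, from 2.65 to 8.43). Npm3 was 2.38-fold higher there (from 1.49 to 3.66). The liver region of E11 replicate 2 held Cpm at 130 CPM against 30.8 CPM outside (47 and 57 counts, 4.23-fold, from 2.81 to 6.33). Wnt4 was scarce in that region, with 16.6 CPM against 88.1 CPM outside. The intervals cover counting error only.

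Pathway lists moved less than tissue lists. Of 23 lists, 4 had sums that were higher in both E11 sections, 4 were lower and 15 overlapped, and Wnt4 and Zfp990 were the only called members. Of the 8 sums without overlap at 10 µm, 1, that of cytosolic ribosomal proteins, was also free of overlap between all E10 and all E11 libraries of any width. The gap was narrow, with E10 from 98044 to 158286 CPM and E11 from 158636 to 191041 CPM. The other 7 overlapped there. Where a list has a share of members on one side, the background is 22.5% higher and 23.5% lower over all tested genes.

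Among signalling pathways, the Wnt list was lower, at 767, 1368, 566 and 484 CPM, with 13 of 31 members lower in both E11 sections (41.9%) and 3 higher (9.68%). The feedback targets and effectors Axin2, Nkd1, Sp5, Znrf3 and Lef1 were among those lower. Lef1 measured 81.1, 101, 61.3 and 34.3 CPM, the secreted inhibitor Sfrp1 185, 199, 114 and 172 CPM, and the ligand Wnt7b 64.9, 192, 74.5 and 0.903 CPM. Wnt4 was thus called higher in a list whose median log2 fold change was -0.50. BMP genes gave 1190, 1513, 1027 and 877 CPM with 5 of 24 lower (20.8%), a share close to the background, with Id3, Id2 and Msx1 the most abundant and the receptor genes Bmpr1a, Bmpr1b and Bmpr2 among the 5. The Hedgehog, Notch and FGF sums overlapped, at 304 to 598, 298 to 687 and 294 to 567 CPM. Their lowest values were all in E11 replicate 2.

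Retinoic acid genes gave 1313, 604, 1549 and 1179 CPM, with 7 of 17 members higher (41.2%) and 2 lower. No member was called. The retinoic acid carriers Crabp1 (729, 164, 479 and 161 CPM) and Crabp2 (77.01, 111, 132 and 30.3 CPM) overlapped. Axon guidance genes were lower in both E11 sections as a sum (1998, 1960, 1585 and 1371 CPM) and for 13 of 36 members (36.1%, median -0.69). The ephrin receptor gene Epha4 measured 158, 200, 139 and 63.2 CPM, Epha3 84.0, 298, 84.9 and 63.7 CPM, and the plexin gene Plxnb2 124, 153, 114 and 100 CPM. The neuron list moved the same way in the same sections, and its part in the axon guidance difference was not tested.

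**Figure D5:**
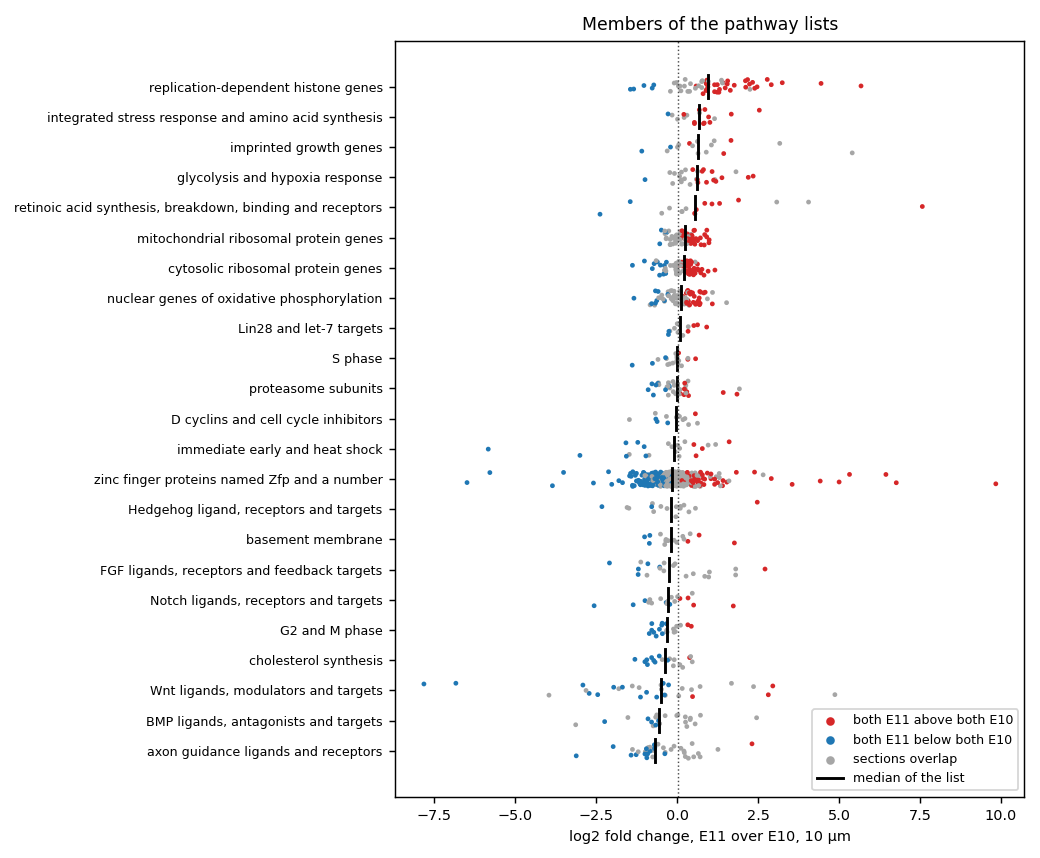
Log2 fold change, E11 over E10 at 10 µm, of the tested members of the 23 pathway lists. Each point is a gene, red where both E11 sections exceed both E10 sections and blue where both are lower, the black bar is the median of the list and the dotted line the median of all tested genes, 0.01. Histone genes have the highest median, 0.94.

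Replication-dependent histone genes, which supply core and linker histones in S phase, were the list with the largest shift. They summed to 5826, 5379, 15774 and 9701 CPM, and 35 of 61 members were higher in both E11 sections (57.4%) against 5 lower. Hist1h2ap measured 1402, 1087, 2905 and 1922 CPM, the linker histone gene Hist1h1e 653, 576, 1523 and 791 CPM, and Hist1h2ao 1404, 1067, 2902 and 1882 CPM. Many of these genes are near-identical copies, so values of single members are uncertain, and E11 replicate 1 was the higher E11 section for all 3. The E11 libraries at 25 µm gave 20329 and 5509 CPM, the second within the range of the E10 sections at 10 µm, and the E12 section gave 2705 CPM. Other S phase genes did not move with them: their sum overlapped (3058, 3537, 3441 and 2778 CPM, median -0.01), with Rrm1, Mcm7 and Lig1 near the same level throughout.

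G2 and M phase genes were lower as a sum, at 6028, 5413, 4926 and 4441 CPM, with 11 of 20 members lower (55%) and 2 higher (median -0.33). Top2a, which untangles chromosomes, measured 1502, 1175, 1123 and 1023 CPM, and the proliferation marker gene Mki67 1082, 868, 844 and 706 CPM. Ube2c went the other way, at 282, 393, 526 and 396 CPM. For Top2a and Mki67 the difference between stage means was of about the size of the gap between the E10 sections.

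Glycolysis and hypoxia response genes were higher in both E11 sections, at 6954, 7692, 10013 and 11325 CPM, for 12 of 27 members (44.4%, median 0.63). Eno1 measured 1279, 1214, 2128 and 2259 CPM, Gapdh 1048, 1162, 2058 and 1741 CPM, and Pkm 1534, 1931, 2365 and 1718 CPM. The E11 libraries at 25 µm gave 9886 and 7452 CPM, the second within the E10 range, and E12 gave 4759 CPM. Slc2a1, the glucose transporter gene, was the one member lower in both E11 sections. Within E11 replicate 2 the list was similar inside and outside the liver region (12352 and 11147 CPM) and the heart region (12457 and 11249 CPM).

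Genes of the integrated stress response and of amino acid synthesis overlapped as a sum (1724, 1501, 1677 and 2205 CPM), yet 11 of 18 members were higher in both E11 sections (61.1%, median 0.69). Phgdh, the first enzyme of serine synthesis, measured 134, 212, 328 and 353 CPM, and Mthfd2 102, 110, 115 and 130 CPM, while the abundant chaperone gene Hspa5 overlapped (1029, 727, 707 and 1058 CPM). The sum was 3189 CPM inside the liver region of E11 replicate 2 and 2017 CPM outside.

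Ribosomal protein genes were slightly higher as sums. Cytosolic ribosomal proteins summed to 145216, 158286, 168430 and 179264 CPM, with 42 of 78 members higher (53.8%, median 0.23), among them Rpl41 (5113, 4556, 7272 and 6669 CPM) and Rpl32 (4395, 4581, 5529 and 5488 CPM). Mitochondrial ribosomal proteins gave 5365, 6632, 6946 and 7565 CPM, with 37 of 76 higher (48.7%). Nuclear genes of oxidative phosphorylation overlapped (22133, 27826, 25666 and 30967 CPM), with 28 of 80 higher (35%). The last list was 51065 CPM inside the heart region of E11 replicate 2 against 29310 CPM outside. Ribosomal protein genes have many processed copies in the genome. The share of counts in pseudogene columns was also higher in both E11 sections, and its part in these differences was not tested.

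Cholesterol synthesis genes overlapped as a sum (1579, 1659, 1747 and 1058 CPM), with 9 of 18 members lower in both E11 sections (50%), while the 3 most abundant, Hmgcs1, Acat2 and Srebf2, overlapped. The immediate early and heat shock list overlapped at 5760 to 7596 CPM. Its constitutive chaperone gene Hspa8, named after its values were seen, measured 601, 733, 214 and 238 CPM (log2 fold change -1.57, adjusted p = 0.088 by edgeR's quasi-likelihood test with Benjamini-Hochberg adjustment).

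The Lin28 and let-7 target list, which reports a timing pathway of early development, was level, at 2274, 2424, 2685 and 2410 CPM with a median log2 fold change of 0.10. Lin28a measured 9.12, 9.92, 15.6 and 11.7 CPM and Lin28b 42.3, 32.5, 36.8 and 27.5 CPM. Hmga2 (570, 772, 467 and 879 CPM), Igf2bp1 (606, 597, 890 and 479 CPM), Igf2bp2 and Mycn overlapped. Lin28a, Hmga1, Arid3a and Nr6a1 were higher and Igf2bp3 and Dicer1 lower in both E11 sections without passing the test, and Trim71 and Lin28b overlapped. The imprinted growth genes overlapped as a sum (5998, 4015, 4356 and 8833 CPM), with Gnas, Mest and Peg3 the most abundant.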

How the data were processed

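The data were the transcript tables of 11 mouse embryo sections, with pixels in rows and genes in columns. The deposited values are raw counts per pixel and gene, which the authors did not normalize as far as the values show (whole numbers with differing totals). Per the submitters' processing notes, CASAVA 1.8.2 was used and the build is GRCh38, a human build although the samples are mouse. Per the labels' protocols, the libraries came from frozen sections, were prepared using Nextera XT reagents and read on a HiSeq instrument as paired ends of 100 bases. The aligner, the counting rule, the use of strand and the collapsing of duplicate molecules are not given in the sources used here, so overlapping and antisense genes cannot be separated.

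Of 30534 gene columns, 29783 matched GENCODE M21 (GRCm38), 402 of them by an older symbol, and 751 did not. The 17734 protein-coding autosomal genes were used, and 5241 pseudogene columns were left out. Tissue pixels had totals no lower than 0.1 times the library's 95th percentile. Their counts were summed per library and fitted with edgeR 4.0.16 in R 4.3.3 (TMM, filterByExpr, robust quasi-likelihood, 6 groups of stage and pixel width over 11 libraries, Benjamini-Hochberg adjustment). The other 7 libraries entered to share the estimate of spread. Of the 17734 genes, 14066 passed the filter. DESeq2 1.42.0, other scalings, filters, pixel thresholds and left-out libraries were alternatives. List sums, shares of thinned pixels and regions were computed with Python 3.11.15. Regions were the tenth of tissue pixels with the highest share of a list.

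The fit was tested on simulated data. Over 13478 genes it called 6 of 47 genes changed 2-fold and 33 of 47 changed 4-fold. It called 48 of 50 changed 8-fold and 45 of 47 changed 16-fold, with 10 false calls. Most changes of 2-fold in the simulation were thus not called. The simulated data were drawn with a dispersion, a measure of spread between libraries, of 0.0907, the common value of the fit. Whether these rates hold for sections that differ in tissue content was not tested.

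Named genes were the called genes that did not overlap between stages, leaving aside Gm-numbered and Rik symbols, every called list member, the 3 most abundant members of each list described, all globins and all Lin28 list members. Any further genes named, such as Axin2, Nkd1, Sp5, Znrf3, the BMP receptor genes, Slc2a1, Hoxa10, Zfp986 and Zfp988, were chosen after their values were seen. The sections compared, the gene lists and the rules were chosen with earlier results of these data known. Coordinates are GRCm38, and promoters are from RefSeq. Some genes that these rules select are not reported here.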

Additional observations from a re-analysis of the deposited data

Results flagged for a closer look

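Xist, the RNA of the inactive X chromosome and outside the autosomal fit, was detected in both E11 sections at 10 µm, at 8.56 CPM of all counts in replicate 1 (22 counts) and 5.47 in replicate 2 (15 counts), against 0 in every E10 library and in the E12 section. It is listed because it is a signal in gene columns that the comparison did not use. The E11 libraries at 25 µm held 2.57 and 1.56 CPM.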

How the results depend on the processing

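No paired analysis was possible because the replicate numbers of the E10 sections at 10 µm come from accession order only and pair no samples. Of the called genes none changed direction under any alternative, and over all genes and alternatives 328 calls were kept and 174 lost. The count of 23 became 355 with DESeq2 (209 higher, 146 lower), 65 with no filter on low counts, 608 with all gene columns (467 higher, 141 lower), 0 with libraries thinned to the shallowest, 15 without genes that RefSeq lists as pseudogenes (an alternative chosen after seeing the data) and 1 with only the 4 libraries at 10 µm. Leaving out single libraries gave 3 to 757 calls, and 5 to 15 without one E10 library at 50 µm. With other scalings, filters and pixel thresholds the count was 16 to 22. The difference from 25 µm was 0 calls, 3 with DESeq2, 1 with no filter, 25 with all gene columns, and 0 to 14 when single libraries were left out. The causes of these changes were not tested. List sums that did not overlap numbered 19 of 49 in CPM and 21 with TMM scaling, which adds the basement membrane and Zfp lists as lower, and thinned pixel shares that did not overlap numbered 12 of 26 at 500 counts, 12 at 300 and 11 at 1000. With 2 sections a stage and 2121254 used counts in the shallowest, small differences are not detectable.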
